A study of Mus musculus with 8 samples.

Results

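The troponin and tropomyosin genes of skeletal muscle form the switch that calcium acts on in the thin filament, and 10 of them were followed here: *Tnnt1*, *Tnnt2* and *Tnnt3* for troponin T, *Tnni1* and *Tnni2* for troponin I, *Tnnc1* and *Tnnc2* for troponin C, and *Tpm1*, *Tpm2* and *Tpm3* for tropomyosin. They were taken from the table by gene symbol, and the choice of this gene family was made with earlier results of these data known. Each symbol had 1 probe set, a group of short probes that report on 1 gene, so they were 10 of 22206 probe sets of the Clariom S Mouse array, which together name 22665 gene symbols. The study asked how lasting loss of MYTHO, a protein described as a regulator of autophagy, changes the transcripts of the gastrocnemius (GAS) muscle. Male wild-type C57/Bl6j mice received an adeno-associated virus (AAV) in the GAS at an age of about 10 weeks. In the MYTHO-KD group (4 arrays) the virus carried a short hairpin RNA (sh-RNA) against the transcript of D230025D16Rik, the gene for MYTHO. In the scramble group (4 arrays) it carried a scramble sh-RNA and was given to the opposite leg. Both hairpins were driven by the U6 promoter, which is active in most cell types, and all muscles were taken 12 weeks later, at 22 weeks of age. RNA came from a piece of each muscle and not from the whole GAS, whose regions differ in fibre type according to the study's methods. Which piece was used for each array was not given in the sources used here.

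Troponin is a complex of 3 subunits. Troponin C binds calcium, troponin I holds back the contact of actin with myosin, and troponin T anchors the complex to tropomyosin, a coiled coil that lies along the actin filament. Slow and fast fibres build this switch from different genes. *Tnnt1*, *Tnni1* and *Tnnc1* encode the slow subunits, and *Tnnc1* also serves the heart. *Tnnt3*, *Tnni2* and *Tnnc2* encode the fast subunits, which prevail in a muscle such as the GAS, where fast fibres outnumber slow ones. *Tnnt2* encodes cardiac troponin T and is also made in embryonic and regenerating skeletal muscle. *Tpm1* encodes the alpha tropomyosin of fast and cardiac muscle, *Tpm2* the beta form, and *Tpm3* the form typical of slow fibres. Spliced forms of these genes cannot be told apart with 1 probe set a gene.

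Several troponin I and troponin T genes lie in pairs in the genome, as the coordinates of the authors' table (mm10) show. The gene extents given there are chr1:135799402-135810989 for *Tnni1* and chr1:135836334-135852268 for *Tnnt2*, both on the plus strand and 25.3 kb apart. *Tnni2* (chr7:142441808-142444410, plus strand) and *Tnnt3* (chr7:142498836-142516009, plus strand) form the fast pair, 54.4 kb apart. *Tnnt1* (chr7:4504570-4516382, minus strand) has *Tnni3*, the gene for cardiac troponin I, 1.9 kb away. The other members stand apart from these pairs. *Tnnc1* lies at chr14:31208312-31211729 on the plus strand and *Tnnc2* at chr2:164777161-164779967 on the minus strand. The tropomyosin genes lie at chr9:67022590-67049406 (*Tpm1*, minus strand), chr4:43513726-43523765 (*Tpm2*, minus strand) and chr3:90072649-90100902 (*Tpm3*, plus strand). For *Tnni1*, the table's start lies 16369 bases inside the start of the RefSeq gene, while for the other members the lower coordinate differed from RefSeq by at most 65 bases and the higher coordinate by at most 407.

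The promoter windows of the slow troponin subunits and of *Tnnc2* are shown. Among the troponin members the slow subunits had the widest spread over the arrays, and *Tnnc2* is the fast counterpart of *Tnnc1*. Each window holds 250 bases before and 50 bases after a RefSeq start site (GRCm38.p6, the assembly of mm10), 5′ to 3′ on the gene's strand, and where RefSeq lists several windows the one nearest to the table's gene start was taken. Capitals mark matches to the E-box (CANNTG, the motif of MyoD-family factors) or to the MCAT element (CATTCC, the motif of TEAD factors) on either strand. The windows are chr7:4515926-4516225 (minus strand) for *Tnnt1*, chr1:135799171-135799470 (plus strand) for *Tnni1*, chr14:31208062-31208361 (plus strand) for *Tnnc1* and chr2:164779685-164779984 (minus strand) for *Tnnc2*.
Tnnt1: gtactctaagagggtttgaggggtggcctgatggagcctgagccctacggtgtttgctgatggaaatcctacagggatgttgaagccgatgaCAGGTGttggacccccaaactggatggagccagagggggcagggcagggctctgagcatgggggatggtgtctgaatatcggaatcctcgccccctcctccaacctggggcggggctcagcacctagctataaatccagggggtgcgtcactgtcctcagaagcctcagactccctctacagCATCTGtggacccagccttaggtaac
Tnni1: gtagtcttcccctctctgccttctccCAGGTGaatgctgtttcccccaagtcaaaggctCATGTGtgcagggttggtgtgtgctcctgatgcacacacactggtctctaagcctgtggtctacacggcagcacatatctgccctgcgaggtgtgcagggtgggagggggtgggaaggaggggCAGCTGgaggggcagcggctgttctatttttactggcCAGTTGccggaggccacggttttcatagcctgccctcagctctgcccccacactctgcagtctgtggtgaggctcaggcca
Tnnc1: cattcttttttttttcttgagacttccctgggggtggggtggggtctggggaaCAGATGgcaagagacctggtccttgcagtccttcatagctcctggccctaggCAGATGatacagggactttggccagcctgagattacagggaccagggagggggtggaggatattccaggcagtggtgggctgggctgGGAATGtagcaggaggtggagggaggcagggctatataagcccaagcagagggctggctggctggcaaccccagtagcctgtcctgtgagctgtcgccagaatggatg
Tnnc2: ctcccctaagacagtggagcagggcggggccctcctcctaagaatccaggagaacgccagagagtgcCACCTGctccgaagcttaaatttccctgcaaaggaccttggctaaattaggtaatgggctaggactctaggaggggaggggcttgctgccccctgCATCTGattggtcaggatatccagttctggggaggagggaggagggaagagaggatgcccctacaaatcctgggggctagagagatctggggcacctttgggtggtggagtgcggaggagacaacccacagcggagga

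The *Tnni1* window held 4 E-boxes, and those of *Tnnt1*, *Tnnc1* and *Tnnc2* held 2 each. An E-box was present in all 8 member windows found in RefSeq, but 72.3% of 32851 windows in the reference table hold one. An MCAT element was present in the windows of *Tnnc1*, *Tnnt2* and *Tpm1*, that is 3 of 8, against 14.7% of all windows. The MEF2 site and the CArG box were also searched by name, and neither matched in a member window (they are held by 3.19% and 1.63% of all windows). No 2 matches of different motifs overlapped in a member window. No window stood under the symbols *Tnni2* and *Tnnt3* in the reference table, so these genes were not searched. A match is a run of letters and not a measured binding site.

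The knockdown was present at the level of the target. The probe set of D230025D16Rik (chr8:105225145-105253053, plus strand) averaged 7.71 (SD 0.66, n = 4) in MYTHO-KD and 10.02 (SD 0.37, n = 4) in scramble on the log2 scale, so 20.2% of the scramble signal was left. Signals over the whole table ran from 3.18 to 19.93 (log2). The median difference between the groups was -0.01, and the median SD was 0.27 in both. All 8 skeletal muscle markers had averages of at least 15.31 in scramble, which fits the labelled tissue. The authors' flag listed all 10 members as expressed in both groups. It did the same for the heart gene *Nppa*, at 4.79 in MYTHO-KD and 4.89 in scramble, so the flag alone does not show expression. The table gives 1 average and 1 SD for each group and not the values of the 8 arrays, so which muscles were high or low, and whether the groups overlapped, is not known for any gene. The limma p-values and intervals rest on the spread between the 4 muscles of each group, drawn towards a value common to all probe sets (prior SD 0.284). They therefore do not measure a gene's own spread alone. For *Tpm1* the interval was -0.31 to 0.31 with this moderation and -0.05 to 0.05 without it. The legs of a mouse, which fall into different groups, were treated as separate samples. In whole muscle RNA, fewer fibres of a type and less RNA per fibre cannot be told apart.

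None of the 10 members passed the call of the study's methods, a change of 2-fold or more with an unadjusted p below 0.05. In the whole table, 0.86% of probe sets were called higher in MYTHO-KD and 0.257% were called lower. With p-values adjusted over all probe sets (limma, Benjamini-Hochberg), 0.275% of probe sets fell below 0.05, and none of them was a member. At an unadjusted p below 0.05, 1 member was higher (*Tnnt2*) against 6.48% of all probe sets, and 0 members were lower against 5.52%. The median log2 difference of the members was -0.04, with 7 averages lower, 2 higher and 1 equal. The members were not alike in what these numbers can show. For 5 of them the 95% interval of the difference lay within 2-fold either way, for 4 it ran past 2-fold in both directions, and for *Tnnt2* it lay wholly above 0. Of the 5 narrow intervals, 4 belong to genes with averages above 19 (*Tnnt3*, *Tnni2*, *Tpm1* and *Tpm2*), where the top of the scale compresses differences, so they do not show that the transcripts were stable.

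**Figure D1:**
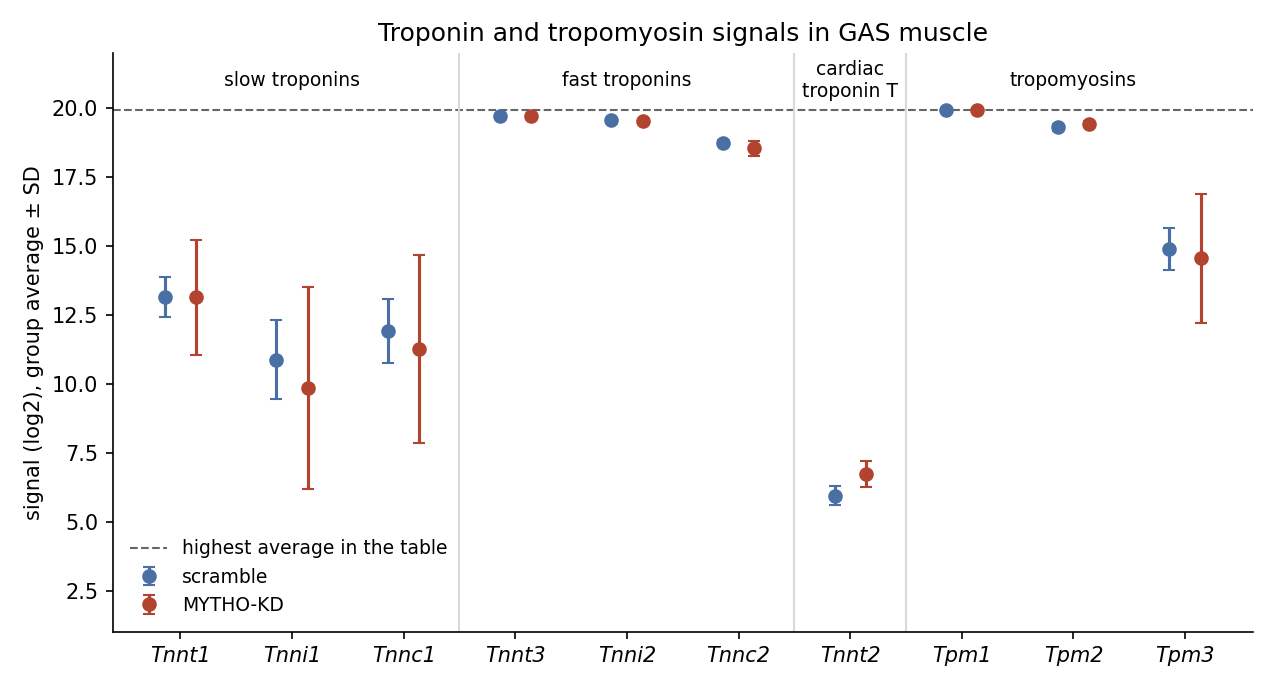
Signal of each troponin and tropomyosin gene in GAS muscle (vertical axis, log2), as the authors' group average with bars of 1 SD over 4 arrays, for scramble (blue) and MYTHO-KD (red). The dashed line is the highest average in the table, 19.93. The slow troponins and *Tpm3* have long bars, longer in MYTHO-KD, while the fast troponins, *Tpm1* and *Tpm2* lie at or near the line. Heights of different genes are not comparable, since each has its own probes.

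The slow troponin subunits had averages below those of scramble in MYTHO-KD, with a spread larger than the differences. *Tnni1*, the slow inhibitory subunit, averaged 9.84 (SD 3.67, n = 4) in MYTHO-KD and 10.87 (SD 1.43, n = 4) in scramble. Its log2 difference was -1.03 (standard error 1.409, 95% interval -4.10 to 2.04, limma adjusted p = 0.839). An average 0.49 times that of scramble therefore carried no call, and the interval runs past 2-fold both ways. *Tnnc1*, the calcium-binding subunit of slow and cardiac muscle, averaged 11.26 (SD 3.40) in MYTHO-KD and 11.92 (SD 1.17) in scramble. The log2 difference was -0.66 (interval -3.47 to 2.15, limma adjusted p = 0.899). *Tnnt1*, the slow tropomyosin-binding subunit, averaged 13.14 (SD 2.08) and 13.15 (SD 0.72), a log2 difference of -0.01 (interval -1.75 to 1.73). Near-equal averages of *Tnnt1* went with a spread that was 2.89 times as wide in MYTHO-KD. Without moderation of the variance, the interval of *Tnni1* widened to -5.85 to 3.79. With separate variances for the groups, also without moderation, it was -6.56 to 4.50.

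The fast subunits sat near the top of the array's scale and none passed the test. *Tnnt3*, fast troponin T, averaged 19.70 (SD 0.09, n = 4) in MYTHO-KD and 19.73 (SD 0.01, n = 4) in scramble, a log2 difference of -0.03 (interval -0.35 to 0.29). *Tnni2*, fast troponin I, averaged 19.52 (SD 0.02) and 19.58 (SD 0.06), a log2 difference of -0.06 (interval -0.37 to 0.25). Both had averages above 19, as did only 38 of the 22206 probe sets, and at that height a rise can be hidden. *Tnnc2*, fast troponin C, averaged 18.54 (SD 0.26) and 18.74 (SD 0.09). Its log2 difference of -0.20 (interval -0.57 to 0.17, limma adjusted p = 0.715) also missed the threshold. For *Tnnt3* and *Tnni2* the narrow intervals do not exclude a change that the top of the scale hides.

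*Tnnt2*, the cardiac and developmental troponin T, was the member whose difference was largest against its error. Its average was 6.72 (SD 0.47, n = 4) in MYTHO-KD and 5.94 (SD 0.35, n = 4) in scramble, which is 1.72-fold higher (log2 difference 0.78, standard error 0.252, 95% interval 0.23 to 1.33). The unadjusted limma p was 0.00935 and the adjusted p was 0.234, so the difference passed the unadjusted threshold and neither the adjusted one nor 2-fold. Across the alternative settings the adjusted p ranged from 0.193 to 0.539. The scramble level lies just above 5.715, the 30th percentile of all probe sets, where the signal is weak. *Tnni3*, the cardiac troponin I gene beside *Tnnt1*, had averages of 5.55 and 5.42 (log2 difference 0.13, limma adjusted p = 0.839). *Tnni1*, which lies in the same stretch of chromosome 1, had a lower average. Its interval ran from -4.10 to 2.04, so no direction can be given for *Tnni1* beside *Tnnt2*.

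The 3 tropomyosin genes split in the same way as the troponins. *Tpm1* averaged 19.93 in both groups, with an SD of 0.04 for MYTHO-KD and 0.00 for scramble. It was 1 of 16 probe sets with both averages at the highest value of the table, where a rise could not be seen. *Tpm2* averaged 19.44 (SD 0.11) in MYTHO-KD and 19.30 (SD 0.14) in scramble, a log2 difference of 0.14 (interval -0.20 to 0.48). *Tpm3*, the slow fibre form, averaged 14.55 (SD 2.35) and 14.89 (SD 0.77), a log2 difference of -0.34 (interval -2.28 to 1.60, limma adjusted p = 0.933). Its SD was large in MYTHO-KD, as were those of the slow troponins, and its interval includes 2-fold either way. Whether the same muscles were high or low for *Tpm3* and the slow troponins is not known. *Tpm4*, which encodes a tropomyosin of non-muscle cells and of repairing fibres and was not among the 10 genes, averaged 10.54 in MYTHO-KD and 9.75 in scramble. Its log2 difference was 0.79 (standard error 0.216, limma adjusted p = 0.162), similar in size to that of *Tnnt2* and also short of 2-fold.

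**Figure D2:**
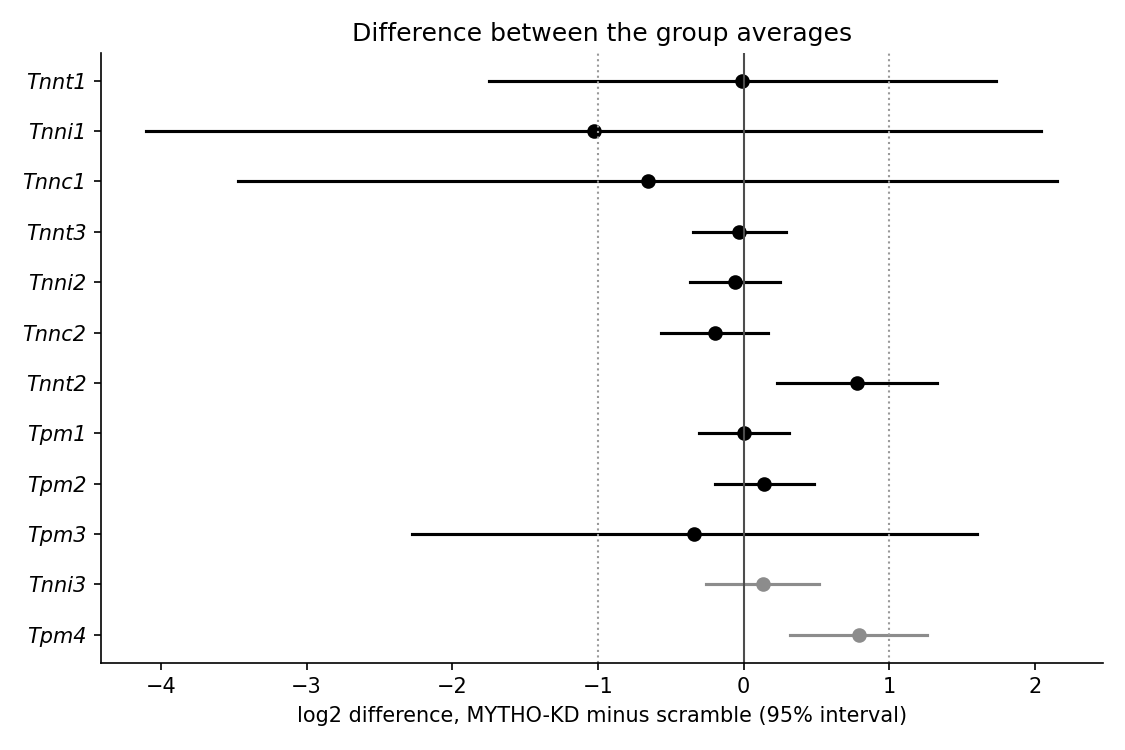
Log2 difference of the group averages, MYTHO-KD minus scramble (horizontal axis), with its 95% interval from limma's moderated variance, for the 10 members (black) and for *Tnni3* and *Tpm4* (grey). Dotted lines mark 2-fold. Intervals of *Tnnt1*, *Tnni1*, *Tnnc1* and *Tpm3* cross both dotted lines, those of *Tnnt3*, *Tnni2*, *Tnnc2*, *Tpm1* and *Tpm2* cross neither, and those of *Tnnt2* and *Tpm4* lie above 0.

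The slow members varied widely among the muscles of a group. They are not set against the fast members here, since *Tnnt3* and *Tnni2* lay near the top of the scale, where the spread is compressed. Over all 22206 probe sets, the SD of *Tnni1* was the highest in MYTHO-KD and that of *Tnnc1* the second, while *Tpm3* ranked 12 and *Tnnt1* ranked 20. Only 21 probe sets had an SD above 2 in MYTHO-KD, and 4 of these were members. In scramble the same 4 genes ranked 19, 33, 173 and 261, so they varied more than most genes there too (99% of SDs were at or below 0.74 in scramble and 0.85 in MYTHO-KD). Only 4 probe sets had an SD above 2 in scramble, and 0 of them were members. For the 4 genes, the SD in MYTHO-KD was 2.57 to 3.05 times that in scramble.

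An SD over 4 values limits how far apart the lowest and highest of them can be, so bounds on the range of the single muscles were computed (a step chosen after the data were seen, for ordinary SDs). The 4 MYTHO-KD muscles spanned at least 6.35 log2 units for *Tnni1*, or 81.5-fold, while the 4 scramble muscles spanned at most 4.06, or 16.7-fold. For *Tnnc1* the MYTHO-KD muscles spanned at least 5.88 and the scramble muscles at most 3.32. These are differences between muscles of the same group, under the same virus. For *Tpm3* the MYTHO-KD muscles spanned at least 4.06 and the scramble muscles at most 2.19. For *Tnnt1* the bounds were at least 3.59 and at most 2.05. In each case the smallest range possible in MYTHO-KD exceeded the largest possible in scramble.

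By these bounds the range was wider in MYTHO-KD for 7 of the 10 members, against 21.7% of all probe sets, and wider in scramble for 1 member (*Tnni2*), against 22.4%. The 3 others wider in MYTHO-KD were *Tnnc2* (at least 0.44 against at most 0.27), *Tnnt3* (at least 0.15 against at most 0.04) and *Tpm1* (at least 0.06 against at most 0.01). At the top of the scale such small values rest on few rounding steps of 0.01. *Tnnt2* and *Tpm2* were wider in neither group. The members were measured on the same 8 arrays, so 1 muscle can widen several of them together, and whether the groups differ in spread beyond chance was not tested.

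**Figure D3:**
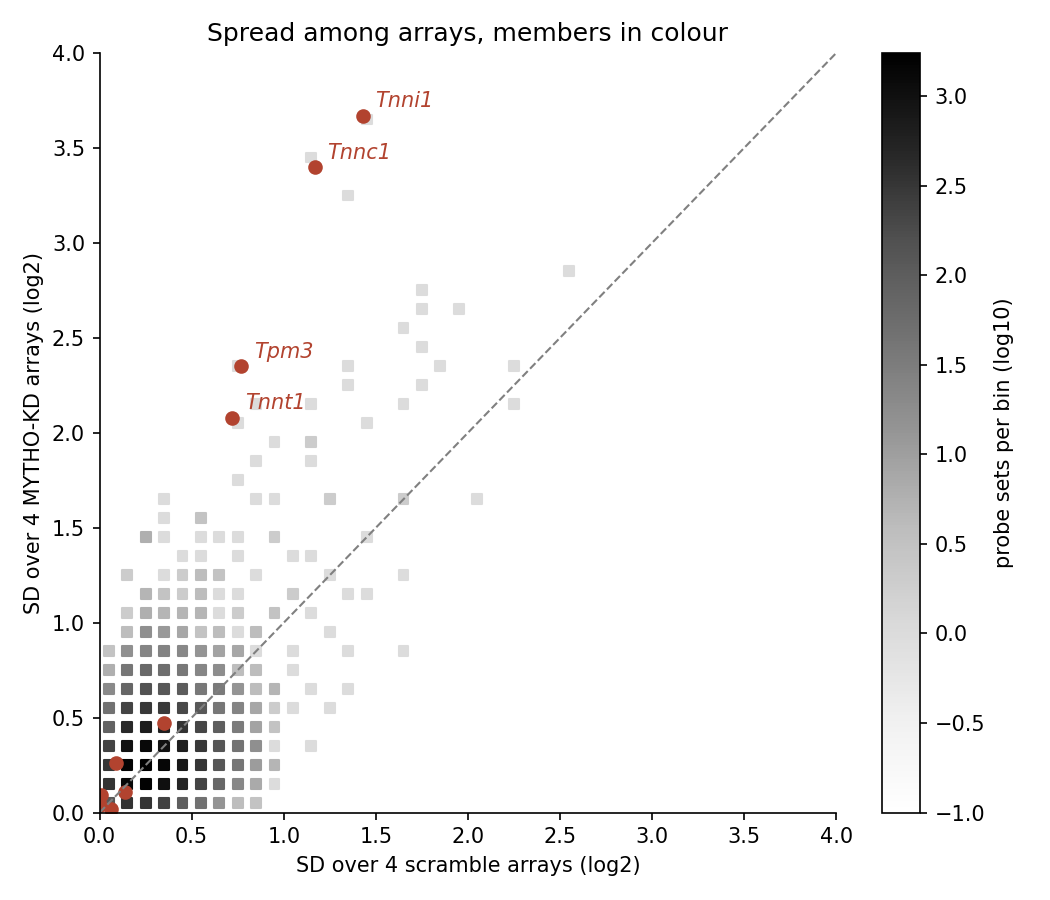
SD over the 4 scramble arrays (horizontal axis, log2) against SD over the 4 MYTHO-KD arrays (vertical axis, log2). Grey squares count all probe sets in steps of 0.1, darker for more, red points are the 10 members and the dashed line marks equal SDs. *Tnni1*, *Tnnc1*, *Tpm3* and *Tnnt1* lie far above the line, with MYTHO-KD SDs of 3.67, 3.40, 2.35 and 2.08.

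Some genes that slow fibres use beside these troponins also had a wide spread. In the list of 9 slow fibre partners, 5 had a wider range in MYTHO-KD by the bounds and 0 in scramble, with SD ratios of 1.79 to 2.67 for those 5. They are named here for their spread, after their values were seen. *Myh7*, the slow myosin heavy chain, had an SD of 3.26 in MYTHO-KD, against 1.30 in the scramble arrays, and ranked 3 of all probe sets, right after *Tnni1* and *Tnnc1*. *Atp2a2*, the calcium pump of slow and cardiac muscle, had SDs of 2.14 and 0.89. The ventricular and slow myosin light chain genes *Myl2* and *Myl3* had SDs of 1.99 against 1.11 and 1.39 against 0.70. *Casq2*, the cardiac and slow calsequestrin, had SDs of 0.96 and 0.36. The other 4 were wider in neither group, among them *Myh7b*, a further slow myosin gene, with an SD of 0.17 in both groups, and *Myl6b*, a slow light chain gene, with SDs of 0.42 and 0.40. Their signals were weak, with averages of 6.58 in MYTHO-KD and 6.54 in scramble for *Myh7b* and of 6.18 and 6.04 for *Myl6b*. Small SDs there do not show that these transcripts varied little. No average of the 5 wider genes passed the test (log2 differences from -0.73 for *Myh7* to 0.54 for *Myl3*). The median log2 difference of the list was 0.14, beside -0.01 over all probe sets, and 1 gene was called, *Myoz2*, a Z-disc protein of slow fibres (log2 difference 1.14, limma adjusted p = 0.200).

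Fast fibre partners stayed near the top of the scale, like the fast troponins. Of 11 genes, 7 had both averages above 19, 0 were called in either direction, and the median log2 difference was 0.00. The widest SD among them in MYTHO-KD was 0.58, that of *Mybpc2*, the fast myosin-binding protein C, whose log2 difference was -0.50 (limma adjusted p = 0.476). *Myh1*, the heavy chain of type IIx fibres, had a log2 difference of 0.59 (limma adjusted p = 0.230). It was 1 of 2 fast partners with an unadjusted p below 0.05, both higher. The other was *Myh2*, the heavy chain of type IIa fibres (log2 difference 0.41, limma adjusted p = 0.315), at 19.91 in MYTHO-KD. The paper reports the opposite direction for *Myh2* by RT-qPCR in the tibialis anterior, a different muscle and method. By the bounds on the range, 5 fast partners were wider in MYTHO-KD and 1 in scramble, as many as in the slow list, with small SDs that the top of the scale can compress.

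**Figure D4:**
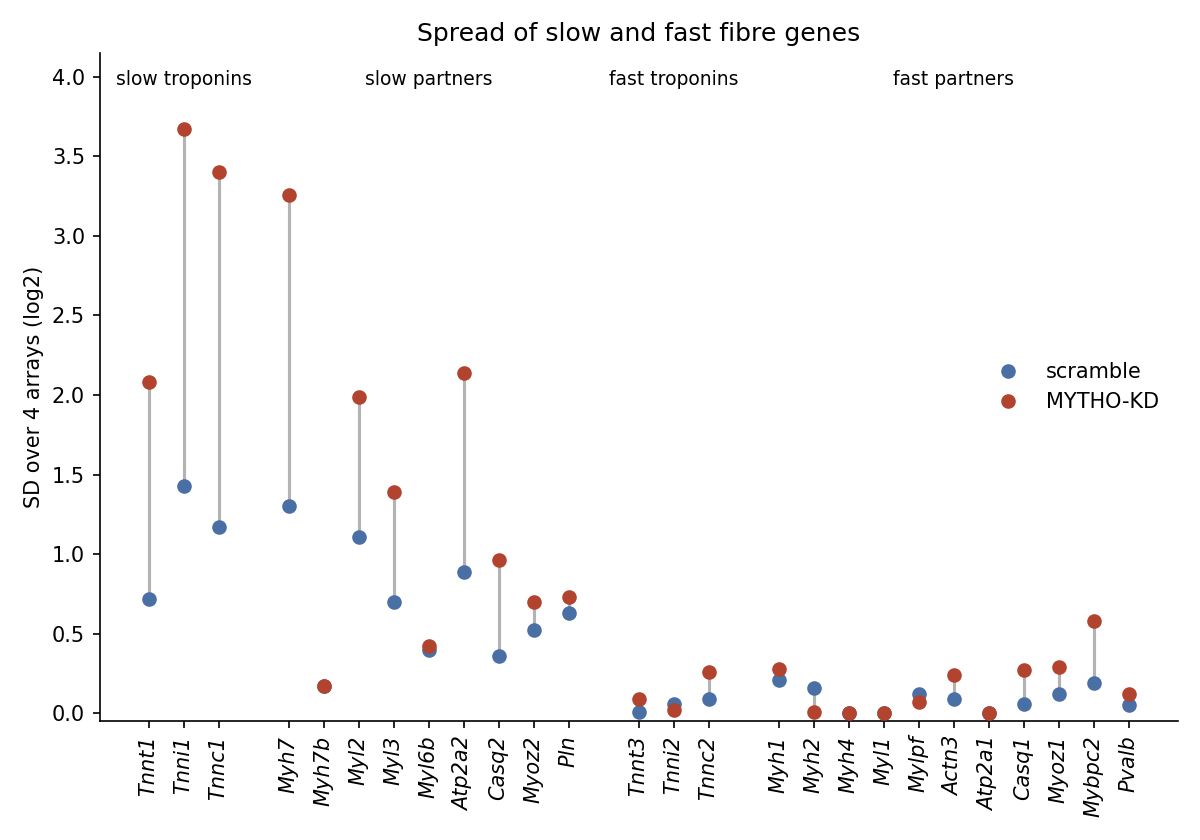
SD over 4 arrays (vertical axis, log2) in scramble (blue) and MYTHO-KD (red) for the slow troponins, 9 slow fibre partners, the fast troponins and 11 fast fibre partners, with a grey line joining the SDs of a gene. The slow troponins and *Myh7*, *Myl2*, *Myl3* and *Atp2a2* reach SDs above 1 in MYTHO-KD, while no fast gene exceeds 0.58. Most fast genes lie near the top of the scale, which compresses their SDs.

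Other genes of the thin filament gave 1 call. Of 12 partners, which build, cap or length-tune the actin filament that the members lie on, *Lmod2*, an actin nucleator, rose (averages 13.97 in MYTHO-KD and 12.25 in scramble, log2 difference 1.72, limma adjusted p = 0.0754). The list's median was 0.01, 3 of the 12 genes were higher at an unadjusted p below 0.05, and none was lower. In the developmental list, to which *Tnnt2* is close in use, 2 of 8 genes were called. *Myh3*, the embryonic myosin heavy chain, was called with a log2 difference of 1.27 (limma adjusted p = 0.366), but not without moderation of the variance, when the interval was -0.48 to 3.02, nor with unequal variances. *Mymk*, the fusion protein myomaker, listed as Tmem8c, rose (log2 difference 1.77, limma adjusted p = 0.0749). *Myh8*, the perinatal heavy chain, was at 19.93 in both groups. That is the highest value of the table, where a rise could not be seen, so its equal averages do not show an unchanged transcript. Whether this probe set reports *Myh8* alone was not tested. By RT-qPCR in the tibialis anterior, a different muscle and method, the paper reports higher *Myh8* after MYTHO-KD at various times. The median of the list was 0.18. Among 12 regulators of fibre type, *Vgll2*, a cofactor of TEAD proteins that favours slow fibres, was called (log2 difference 1.37, limma adjusted p = 0.162), and the list's median was -0.01. *Sox6*, a repressor of slow genes in fast fibres, had a log2 difference of -0.29 (limma adjusted p = 0.615) and is named for that role.

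Markers of other cells moved beside *Tnnt2* and *Tpm4*, both of which are also used outside adult fibres. All 5 macrophage markers had higher averages in MYTHO-KD, 3 were called, and their log2 averages summed to 43.1 in MYTHO-KD and 35.9 in scramble. *Cd68* rose by 2.53 and *Lyz2* by 1.94 (log2, limma adjusted p = 0.0182 and 0.0277), and *C1qb* by 1.27 (adjusted p = 0.0754). Of 6 fibroblast markers, all had higher averages and 2 were called, *Lum* (log2 difference 1.49) and *Col3a1* (1.43), with summed log2 averages of 67.4 and 62.5. Endothelial markers gave 0 calls of 4 (sums 44.3 and 42.5, largest log2 differences *Kdr* 0.75 and *Tek* 0.53). Smooth muscle markers gave 0 of 7 (63.5 and 62.7, *Mylk* 0.58 and *Myh11* 0.25). Cardiac markers gave 0 of 5 (33.0 and 32.8, *Ryr2* -0.65 and *Gja1* 0.50). No marker could be listed at 0, since the lowest average in the whole table was 3.18. The part of these cells in the difference of *Tnnt2* was not tested. The skeletal muscle list gave 0 calls of 8 (144.9 and 144.5). Its largest log2 differences were 0.93 for *Mb*, the oxygen store myoglobin, and -0.39 for *Ryr1*, the calcium release channel. *Mb* lay at 19.75 in MYTHO-KD and fell short of 2-fold (limma unadjusted p = 4.09e-04, adjusted p = 0.0754). For *Ryr1* the limma adjusted p was 0.408.

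The fast pair *Tnni2* and *Tnnt3* lies beside the imprinted genes *H19* and *Igf2*, and the differences changed sharply along this stretch of chromosome 7. *H19*, a non-coding RNA measured together with Mir675, lies 59.5 kb past *Tnnt3*. It averaged 16.07 in MYTHO-KD and 13.14 in scramble (log2 difference 2.93, limma adjusted p = 0.0292). *Igf2*, a growth factor gene 134.8 kb past *Tnnt3*, averaged 13.62 and 10.19 (log2 difference 3.43, limma adjusted p = 0.00656). Neither fast troponin was called. The other genes of the stretch were also not called. *Lsp1*, between *Tnni2* and *Tnnt3*, had a log2 difference of 0.12, and *Prr33*, which overlaps *Tnnt3*, had 0.14. Only *Mrpl23* (-0.22) lies between *Tnnt3* and *H19*. For *Tnni2* and *Tnnt3* the top of the scale bounds what a rise could show.

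**Figure D5:**
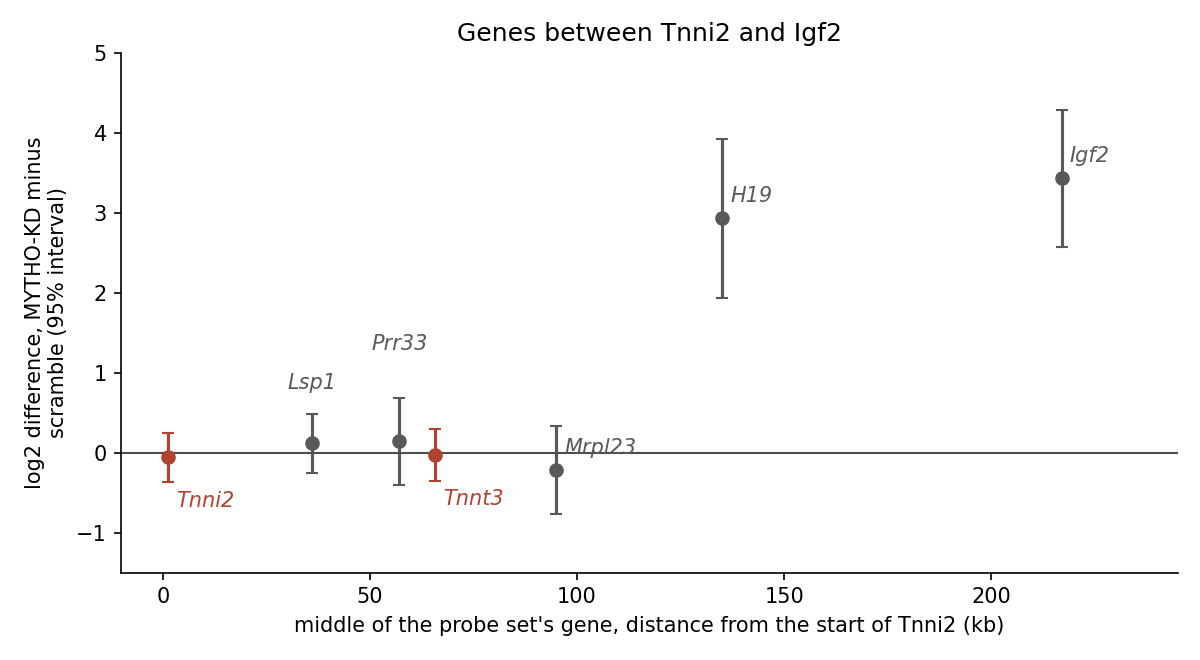
Log2 difference, MYTHO-KD minus scramble, with its 95% interval (vertical axis) for the genes from *Tnni2* to *Igf2*, placed by the middle of each gene in kb from the start of *Tnni2* (horizontal axis). The members *Tnni2* and *Tnnt3* (red) lie at -0.06 and -0.03, and *H19* and *Igf2* at 2.93 and 3.43.

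The nearest gene on either side of each member was looked up as well, 19 genes in all that were not members. Of these, 1 was called, *Phlda3*, a target of p53 (averages 11.62 in MYTHO-KD and 9.98 in scramble, log2 difference 1.64, limma adjusted p = 0.0351). It lies 30.3 kb before *Tnni1* by the authors' coordinates. Their start of *Tnni1* is 16369 bases inside the RefSeq gene, so the distance to the RefSeq gene is shorter. The only other neighbour at an unadjusted p below 0.05 was *Car9*, a carbonic anhydrase gene that overlaps the end of *Tpm2* on the opposite strand (log2 difference 0.70, limma adjusted p = 0.207). The neighbours of the other slow members were not called, with log2 differences of 0.07 for *Ppp1r12c* beside *Tnnt1* and of 0.12 and -0.24 for *Nisch* and *Sema3g* beside *Tnnc1*.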

How the data were processed

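Total RNA of GAS muscles 12 weeks after AAV sh-RNA MYTHO or AAV sh-RNA scramble was hybridized to Clariom S Mouse arrays, 4 per group, grouped by the sample labels. Per the paper's methods, the authors used SST-RMA at the default settings of the Transcriptome Analysis Console, a method that evens out background and probe composition and stretches the scale. The submitters' notes also name Affymetrix Expression Console and RMA, without versions. The deposited values are group averages on the log2 scale and their SDs, 1 pair for each of 22206 probe sets annotated on mm10. Columns with the authors' fold changes, p-values and false discovery rates were not used.

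Differences are MYTHO-KD minus scramble. The mean variance of both groups, with 6 residual degrees of freedom, was moderated by squeezeVar (limma 3.58.1, R 4.3.3), with a prior SD of 0.284 on 5.847 degrees of freedom. Two-sided p-values were adjusted over the whole table by Benjamini-Hochberg. Calls follow the methods, 2-fold with an unadjusted p below 0.05. The test was checked on simulated data. The kind of average is not stated. If it is a robust one, p-values are too small, and the bounds on ranges, 1.73 to 2.83 times the SD, hold for ordinary SDs only.

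The members and the gene lists were chosen with earlier results of these data known. Named genes are the members, the hairpin's target, called genes of each list (otherwise the 2 largest differences), neighbours of members and the genes from *Tnni2* to *Igf2*. Other names are marked. The lists were skeletal muscle, thin filament, slow and fast fibre partners, developmental genes, fibre-type regulators, macrophage, fibroblast, endothelium, smooth muscle and cardiac muscle. Alternatives were other moderation, unequal variances, a filter on dim probe sets, 1 probe set per symbol, centring and a 1.5-fold threshold. Arrays have no read depth, and their number limits the precision.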

Additional observations from a re-analysis of the deposited data

How the results depend on the processing

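Each member's difference was recomputed under 6 alternative settings (no moderation, a trend on mean signal with robust fitting, unequal variances, dim probe sets left out, 1 probe set per symbol entry, and differences centred on the median). All 60 values kept their side of the unadjusted threshold. Centring moved *Tnnt1* from -0.01 to 0.00 and *Tpm1* from 0.00 to 0.01, and the other values kept their direction. *Tnnt2* had an unadjusted p from 0.00777 to 0.0404 over these settings. With a threshold of 1.5-fold in place of 2-fold, 1 member was called, *Tnnt2*. Over the whole table, the count at an adjusted p below 0.05 depended on the moderation, with 61 probe sets in the reported test, 189 with the trend and robust fitting together, and 2 both without moderation and with unequal variances. The 2-fold call gave 248 probe sets in the reported test and 201 to 253 under these settings. No paired analysis was possible because the table holds group averages, so both legs of an animal cannot be matched, and for the same reason leave-one-out values were not computed. Each member has 1 probe set, so the alternative of another probe set was not run. Protein sequences were not analysed here. The top of the scale limits what can be said of *Tnnt3*, *Tnni2*, *Tpm1* and *Tpm2*, and the weak signal limits *Tnnt2*.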

Other observations

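Most probe sets with the widest spread in MYTHO-KD belong to genes outside muscle contraction, and those named here were picked after their values were seen. Of the 21 probe sets with an SD above 2 in MYTHO-KD, 9 name a Mup gene (major urinary proteins, made in the liver). Their SDs ran from 2.03 to 2.85 in MYTHO-KD and from 1.47 to 2.52 in scramble, and their averages were 2.23 to 3.08 higher (log2) in MYTHO-KD. *Alb*, serum albumin, had SDs of 2.28 and 1.34 with a log2 difference of 2.66 (limma adjusted p = 0.291). *Adipoq*, the fat cell hormone adiponectin, had SDs of 2.13 and 2.22 and a log2 difference of -0.69. The others that are neither members nor listed slow partners were *Scd1* (SDs of 2.37 and 2.20), *Mss51* (2.37 and 1.35), *Hp* (2.34 and 1.89) and *Fmod* (2.11 and 1.18). Whether the same muscles were high or low for these genes and for the slow troponins is not known from group values.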
